A study of Homo sapiens with 6 samples.

Results

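The clustered protocadherins are cell-surface cadherins encoded by 3 neighbouring gene clusters on human chromosome 5, named alpha, beta and gamma. Members were taken by symbol from the deposited count tables, which gave 53 genes of the 19923 protein-coding genes listed: 15 alpha (PCDHA1 to PCDHA13, PCDHAC1 and PCDHAC2), 16 beta (PCDHB1 to PCDHB16) and 22 gamma (12 PCDHGA, 7 PCDHGB and 3 PCDHGC genes). Their polyadenylated RNA was sequenced in Kelly cells, an established human neuroblastoma line with amplified MYCN and a genotype given as WT. Cells were transfected with a control siRNA (siControl, 3 libraries) or an siRNA against METTL3 (siMETTL3, 3 libraries) and collected at 72 h. METTL3 is the catalytic subunit of the nuclear complex that writes N6-methyladenosine (m6A) on mRNA, and the comparison asks how its depletion changes expression in these cells. Both groups carried the same cell line and the same transient transfection, so the contrast is a partial loss of METTL3 RNA in 1 line. Nothing in the labels says whether replicates came from separate cultures, so each p-value measures the spread between these libraries, which may be technical.

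A clustered protocadherin is a transmembrane protein whose extracellular cadherin repeats bind the same isoform on a neighbouring cell, and each neuron displays its own combination of isoforms. That combination serves as a surface identity by which the branches of a neuron avoid each other. In the alpha and gamma clusters every isoform has its own promoter and its own large variable first exon, which is spliced to a set of small constant exons at the end of the cluster that encode a shared cytoplasmic tail. Beta genes have a single coding exon, no constant exons and so no shared tail. Which promoters are active in a cell is set by CTCF and cohesin, which loop promoters to distal enhancers, and by DNA methylation. The C-type isoforms (PCDHAC1, PCDHAC2, PCDHGC3, PCDHGC4 and PCDHGC5) stand apart: in neurons they are expressed more uniformly than the alternate isoforms.

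Most of these promoters carry a conserved sequence element that holds the letters CGCT just upstream of the start site. The element is shown because it marks the alternate promoters of all 3 clusters and because the letters around it differ between them. RefSeq promoters (GRCh38.p14, 250 bases before to 50 after the start) were found for 47 of the 53 members. CGCT was searched for on the sense strand between positions -100 and -30 relative to the start, and was present in 43 of the 47 promoters, or 91.5%, against 21.6% of all 35097 promoters in the same reference. The positions ran from -95 to -38, with a median of -57. Without the limits on position and strand the letters are common, being present in 70.0% of all promoters. The 30-base windows below are on the plus strand, 5′ to 3′, with CGCT in capitals.
PCDHA2, chr5:140794784-140794813: agccacatgatgtCGCTgtccaccatagag
PCDHA5, chr5:140821545-140821574: atccacatgatgtCGCTggacaccggaagg
PCDHB2, chr5:141094547-141094576: agacgcggggtggCGCTgcagccttagaag
PCDHB10, chr5:141192302-141192331: ggccacacggtggCGCTgcaggctaaagag
PCDHB14, chr5:141223266-141223295: agacacatggtggCGCTacaggataagacg
PCDHB1, chr5:141051277-141051306: tggggagttgagtCGCTcaatgcaaatttt
PCDHGA5, chr5:141364110-141364139: ggactctgagtgtCGCTgttgaccaaagtg
PCDHGA9, chr5:141402717-141402746: ggactctgagcgcCGCTgttgatcaactct
PCDHGB3, chr5:141370165-141370194: aggcgccgggtgcCGCTcttggctagtgct
PCDHGB5, chr5:141397866-141397895: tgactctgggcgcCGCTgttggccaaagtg
PCDHAC2, chr5:140966422-140966451: tgagccctcctacCGCTccctttccccctc

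The letters beside CGCT differed by cluster. A longer form, GGTGGCGCT, searched on both strands over the whole promoter, was present in 13 of 14 beta promoters, in 0 of the alpha and gamma promoters and in 0.501% of all promoters. The form GATGTCGCT was present in 9 of 11 alternate alpha promoters and 0.105% of all promoters, and GNCGCTGTT in 10 of 11 gamma A promoters, 3 of 7 gamma B promoters, 1 beta promoter and 0.846% of all promoters. These 3 forms were spelled after the windows had been seen, and each contains CGCT, so they describe the windows and test nothing. The promoter of PCDHB1 lacked the beta form, as its window shows, and the C-type promoters with a RefSeq entry held none of the 3. The window of PCDHGB5 is letter for letter that of PCDHGB4, and PCDHGB6 and PCDHGB7 also share a window. PCDHA9, PCDHB5, PCDHB8 and PCDHGB2 had a RefSeq promoter but no CGCT between -100 and -30.

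The counts of these genes need care, because the alpha and gamma spans overlap and share reads. Per the file headers, reads were counted over the whole gene span, introns included, and reads that touch several spans were assigned to all of those genes. All 15 alpha spans end together, near position 141012347, and all 22 gamma spans end near 141512981. Ends within a cluster differed by at most 6 bases, so each span lies inside the one before it but for these few bases. The alpha genes therefore ran from PCDHA1 (chr5:140786136-141012347) inward to PCDHAC2 (chr5:140966470-141012347), and the PCDHA1 row counts the reads of the whole alpha cluster. Likewise the PCDHGA1 row (chr5:141330571-141512981) counts the whole gamma cluster. Adding up the alpha rows counted the same reads 7.05 to 7.70 times per library, and adding up the gamma rows 14.4 to 15.02 times. The beta genes (chr5:141051135-141249365) are separate from each other, although PCDHB14 and PCDHB15 share reads with AC244517.10, a gene model that runs from inside the first to inside the second.

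To separate the shared reads, the count of the next gene inside was subtracted from that of each alpha and gamma gene. What remains is the number of reads that touch the span of that gene but not that of the next. The stretch from the start of that gene to the start of the next is called a segment here. Reads that cross the start of a segment from before it are included in its count. A segment holds the variable exon of its isoform, or nearly all of it, and the sequence behind it. Intron reads, including those of unspliced RNA begun at an earlier isoform, cannot be told from variable-exon reads. A segment count is thus not a count of its isoform alone. Member exons of GENCODE release 44 cover 2716 of the 45440 bases of the PCDHGA12 segment and 4077 of the 40101 of PCDHAC1. In 9 of the 37 genes the first exon of GENCODE release 44 begins 3 to 154 bases before the segment, furthest in PCDHGA9. A read spliced from a variable exon to a constant exon touches every span of the cluster, and is thus counted in the last segment (PCDHAC2 or PCDHGC5) together with the reads of the constant exons. The PCDHA10 segment also holds the pseudogene PCDHA14, the PCDHGA11 and PCDHGA12 segments hold PCDHGB8P and PCDHGB9P, and the last 125 bases of the PCDHGB4 exon lie in the PCDHGA8 segment. The variable exons resemble each other, and no option to count reads that map to several places appears in the headers, so isoform counts may miss such reads.

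The libraries held 15430000 (siControl replicate 3) to 21565013 counts. By chi-square per degree of freedom over genes, siControl replicate 3 was at 16.1 and 8.86 from siControl replicates 1 and 2. Those 2 were at 5.57 from each other, and pairs of siMETTL3 libraries at 3.05 to 3.75. METTL3, the siRNA target, was at 53.5, 52.8 and 56.2 CPM (counts per 1000000 of the scaled library size) in siControl and at 32.99, 31.8 and 34.3 in siMETTL3. The groups did not overlap, and METTL3 stood at 61.0% of control (log2 fold change -0.71, SE 0.070, edgeR FDR 4.68e-06); its span overlaps TOX4. The 7 markers of noradrenergic neuroblastoma summed to 4854 to 5384 CPM in siControl and 7375 to 7797 CPM in siMETTL3, and 5 of the 7 were higher (18.6% of all genes tested were), TH with a log2 fold change of 1.52. Of the 4 fibroblast markers only COL1A1 was high enough to test. It rose from 2.96 ± 1.27 to 5.26 ± 0.471 CPM (SD, n = 3), while COL1A2, DCN and LUM stayed at or below 0.390 CPM in every library. Summed leukocyte markers were at most 2.83 CPM and summed epithelial markers at most 6.997 CPM. The part of these marker changes in the protocadherin results was not tested. In bulk RNA, fewer cells with an isoform and less RNA per cell cannot be told apart.

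Reads of 9 beta genes and of the gamma cluster fell after METTL3 knockdown, and the total of the alpha cluster did not pass the test. Beta genes together held 115, 117 and 115 CPM in siControl and 79.0, 75.2 and 74.6 CPM in siMETTL3, so every siMETTL3 library lay below every siControl library. The sum went from 116 ± 1.13 to 76.3 ± 2.35 CPM (SD, n = 3), a log2 difference of -0.60, given with no test since it sums genes tested singly. Gamma cluster reads went from 203, 194 and 193 CPM to 162, 170 and 149 CPM, again without overlap (PCDHGA1 row, log2 fold change -0.30, SE 0.060, edgeR FDR 0.00164). Alpha cluster reads were 127, 139 and 128 CPM in siControl and 136, 125 and 128 CPM in siMETTL3, and the groups overlapped throughout (PCDHA1 row, log2 fold change -0.02, SE 0.060, edgeR FDR 0.798).

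**Figure D1:**
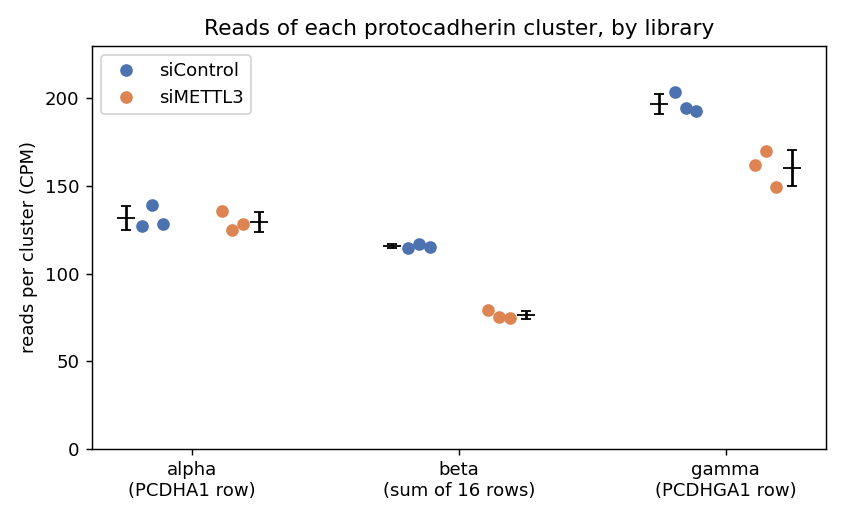
Reads of each cluster in CPM, 1 point per library, with black marks for the mean and SD of 3 libraries; alpha is the PCDHA1 row, beta the sum of 16 genes and gamma the PCDHGA1 row. The siMETTL3 points lie below all siControl points for beta (74.6 to 79.0 against 115 to 117) and gamma (149 to 170 against 193 to 203); for alpha the groups overlap (125 to 136 against 127 to 139).

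The balance between clusters moved with these totals. Gamma reads per alpha read were 1.60, 1.39 and 1.503 in siControl and 1.19, 1.36 and 1.17 in siMETTL3. The groups did not overlap, and the two-sided exact permutation test gave p = 0.1, the smallest that 3 libraries against 3 can give. Beta reads per alpha read were 0.901, 0.838 and 0.899 in siControl and 0.581, 0.603 and 0.583 in siMETTL3. Beta reads per gamma read ran from 0.563 to 0.601 in siControl and from 0.443 to 0.499 in siMETTL3. These 2 ratios did not overlap between groups either, and are a description with no test. Since each divides counts of the same library, none depends on how libraries were scaled.

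Of the 53 genes, 52 passed the filter on low counts, the exception being PCDHB1. In the edgeR quasi-likelihood fit over all 15311 genes, 31 of the 52 were lower in siMETTL3 at an FDR under 0.05, where 19.2% of all genes tested were lower and 37.8% were called in either direction. None was higher, against 18.6% of all genes; at an unadjusted p under 0.05 the number higher was also 0, as it was with DESeq2 and limma-voom. The lower rows were 9 of 15 tested beta genes, 22 of 22 gamma genes and 0 of 15 alpha genes (0 also at an unadjusted p under 0.05). In 33 rows every siMETTL3 library was below every siControl library, against 25.1% of all genes (49.9% either above or below). Because nested rows share reads, the 22 gamma rows are not 22 separate measurements. Over segments, 17 of the 52 tested members were lower, against 19.1% of all features in that fit (37.7% in either direction), and 0 were higher, against 18.5%, with 0 higher at an unadjusted p under 0.05 by edgeR, DESeq2 or limma-voom. The lower segments were 1 alpha, 9 beta and 7 gamma. The median log2 fold change over segments was 0.02 for alpha, -0.51 for beta and -0.29 for gamma, beside -0.0027 for all features. In 26 of the 52 every siMETTL3 library was below every siControl library, against 25.1% of all features (49.9% either above or below). Left-out libraries changed the counts. Without siMETTL3 replicate 3, 14 genes and 8 segments were lower. The segments numbered 10 without siMETTL3 replicate 1 and 11 without siControl replicate 2. Lower calls over all features fell in these fits too, but by a smaller share than those of the members. In the gene fit they went from 2937 to 2311 without siMETTL3 replicate 3. In the segment fit they went from 2927 to 2309, and to 2121 and 2233 without siMETTL3 replicate 1 and siControl replicate 2. Without siControl replicate 1, 25 genes and 12 segments were lower. Lower calls over all features rose in that fit, to 3216 genes and 3246 features of the segment fit.

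**Figure D2:**
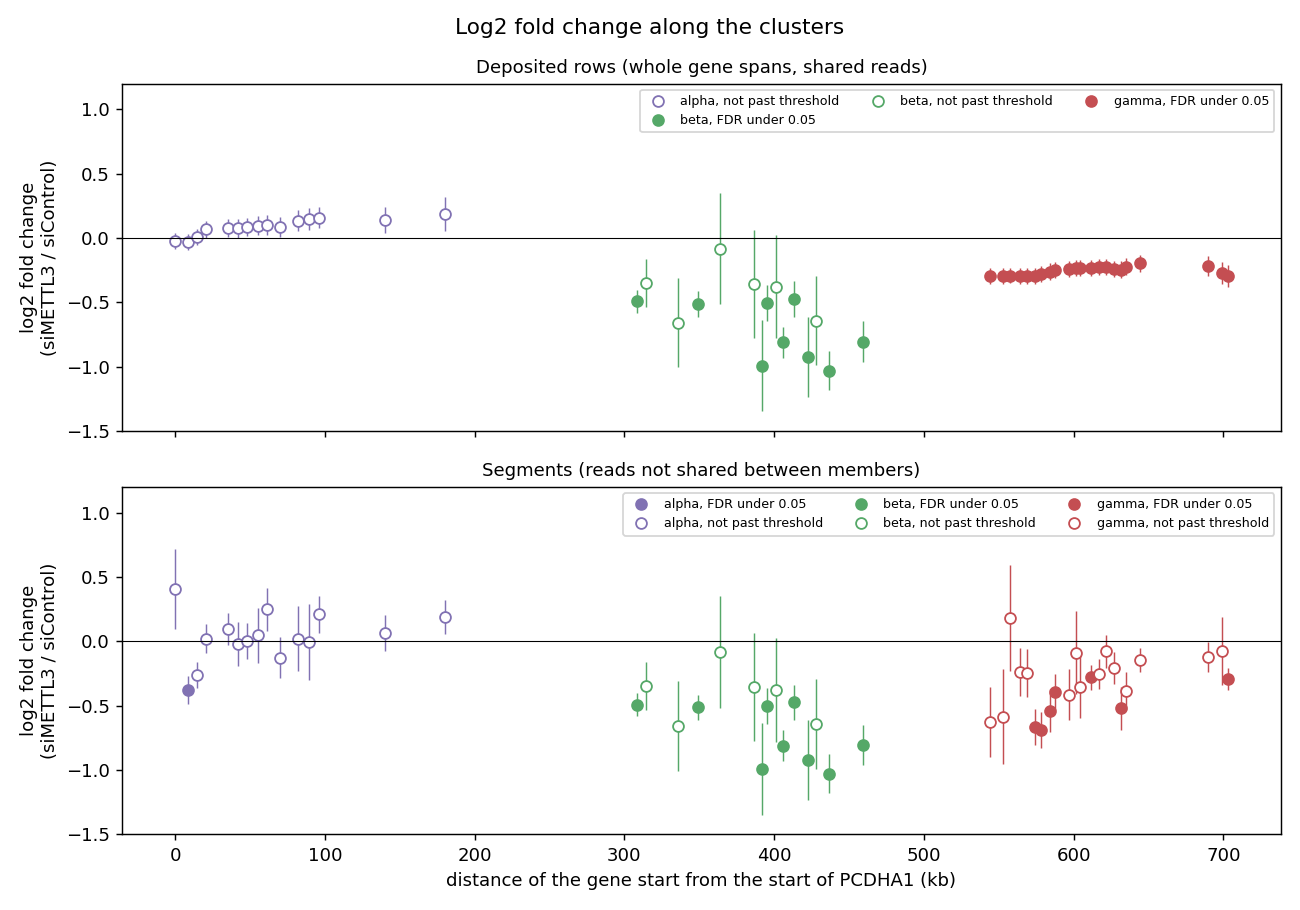
Log2 fold change (siMETTL3 over siControl) of each gene row and of each segment against the distance of its start from that of PCDHA1 in kb; filled points passed an FDR of 0.05. Gene rows of gamma lie in a flat band between -0.30 and -0.20, since they share reads, and the same cluster split into segments ranges from -0.69 to 0.18.

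Beta isoforms, the members with no shared tail and with spans apart from those of other members, made up 9 of the 17 lower segments. All 15 tested beta genes had a log2 fold change below 0, from -1.03 to -0.08. In 11, every siMETTL3 library was below every siControl library, against 25.1% of all genes tested. Per kilobase of gene, PCDHB2, PCDHB5 and PCDHB10 were the most abundant in siControl, at 6.83, 6.78 and 4.26 CPM per kb. PCDHB2 was at 26.9, 28.5 and 28.3 CPM in siControl and 21.8, 18.7 and 18.9 CPM in siMETTL3. PCDHB5 was at 22.0, 22.3 and 24.9 CPM and at 16.4, 17.1 and 14.8 CPM. Both fell to about the same share of control, 71.1% for PCDHB2 (log2 fold change -0.49, SE 0.091, FDR 0.000816) and 70.1% for PCDHB5 (-0.51, SE 0.098, FDR 0.00106).

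PCDHB14 and PCDHB10, further along the cluster, had the smallest FDR values among the beta genes. PCDHB14 was at 11.0, 12.2 and 8.63 CPM in siControl and at 5.05, 5.10 and 5.55 CPM in siMETTL3, which is 49.0% of control (log2 fold change -1.03, SE 0.153, FDR 0.00016). PCDHB10 was at 15.1, 14.6 and 12.3 CPM and at 8.50, 7.72 and 7.79 CPM, or 57.0% of control (log2 fold change -0.81, SE 0.123, FDR 0.00019). In both, the siMETTL3 libraries lay close together and well below the lowest siControl library. PCDHB15, which like PCDHB14 shares reads with AC244517.10, fell to 57.2% of control (FDR 0.00124). PCDHB16, PCDHB11, PCDHB12 and PCDHB8 also passed, with log2 fold changes of -0.50, -0.47, -0.92 and -0.99. PCDHB2, PCDHB5, PCDHB10, PCDHB14 and PCDHB15 were called in every setting and with every library left out. The call of PCDHB12 was lost without any of siControl replicates 1 and 2 and siMETTL3 replicates 1, 2 and 3. That of PCDHB8 was lost without siControl replicate 1 or 2, without siMETTL3 replicate 2 or 3 and with DESeq2, that of PCDHB16 without siMETTL3 replicate 3, and that of PCDHB11 without siMETTL3 replicate 1.

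The 6 beta genes that did not pass had few counts. PCDHB3, PCDHB4, PCDHB6, PCDHB7, PCDHB9 and PCDHB13 had mean counts of 14.7 to 64.7 per library and SEs of 0.189 to 0.434 on the log2 scale, while the called genes had mean counts of 21.5 to 470.3. PCDHB3 was at 3.48, 3.70 and 3.85 CPM in siControl and 2.87, 2.85 and 2.92 CPM in siMETTL3, without overlap, yet with an FDR of 0.166. PCDHB6 and PCDHB9 had the same highest siMETTL3 library, replicate 3, at 1.46 CPM each, and their groups overlapped. PCDHB4 (-0.66, SE 0.348) had a larger estimate than PCDHB2 and did not pass (FDR 0.157). PCDHB1 had 0 counts in all 6 libraries, which allows up to 3 counts, or a rate of 0.139 to 0.194 CPM of the unscaled total depending on the library; this limit covers counting error only.

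**Figure D3:**
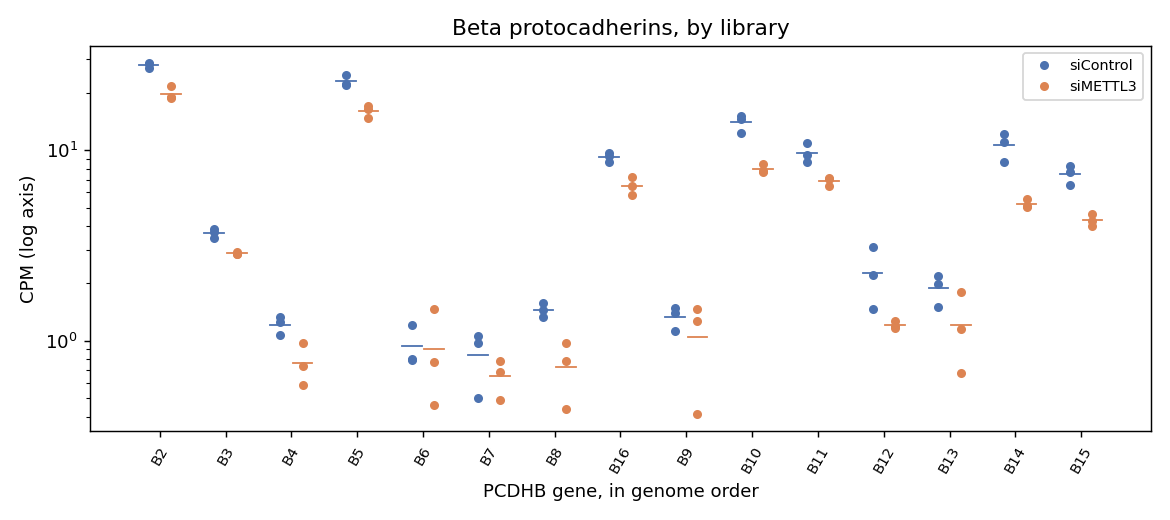
CPM of the 15 detected beta genes on a log axis, 1 point per library, in order along the cluster. In 11 genes all 3 siMETTL3 points lie below all 3 siControl points, against 25.1% of all genes tested. The spread within a group widens for genes near 1 CPM, such as PCDHB6, PCDHB7 and PCDHB9.

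Split into segments, 7 of 22 gamma members were lower, against 19.1% of all features. The gamma gene rows, which count nested sets of reads, stood at 81.4% to 87.3% of control; of their 22 calls, 8 were kept without siMETTL3 replicate 3. Among segments, 21 of 22 log2 fold changes were below 0. In 13, every siMETTL3 library was below every siControl library, against 25.1% of all features. The exception in sign was PCDHGA3 (0.18, SE 0.414), which was at most 1.02 CPM in every library. The calls were PCDHGB2, PCDHGA5, PCDHGB3, PCDHGA6, PCDHGB5, PCDHGB7 and PCDHGC5. The first 4 of these neighbour each other along the cluster.

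PCDHGA5 and PCDHGB2 were the gamma segments with the smallest FDR. The PCDHGA5 segment was at 9.26, 8.64 and 9.66 CPM in siControl and 5.36, 5.44 and 6.25 CPM in siMETTL3, or 62.0% of control (log2 fold change -0.69, SE 0.138, FDR 0.00145). The PCDHGB2 segment was at 8.37, 9.64 and 8.33 CPM and at 5.31, 5.81 and 5.47 CPM, or 62.9% of control (log2 fold change -0.67, SE 0.139, FDR 0.00195). Both groups of both segments were tight and far apart, and these were the 2 gamma segments called in every setting. PCDHGB3 went from 7.16, 7.13 and 6.79 CPM to 4.63, 5.90 and 3.96 CPM (log2 fold change -0.54, FDR 0.021). PCDHGA6 went from 11.3, 10.3 and 11.3 CPM to 9.02, 9.12 and 6.84 CPM (-0.40, FDR 0.0354). PCDHGB7 went from 5.91, 6.73 and 7.73 CPM to 4.78, 5.21 and 4.10 CPM (-0.52, FDR 0.0235). In these 3 the siMETTL3 libraries were all lower, and siMETTL3 replicate 3 was the lowest library of each.

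The most abundant gamma segments per kilobase were PCDHGB5, PCDHGA9, PCDHGB6, PCDHGB2 and PCDHGA10, at 3.87, 2.51, 2.25, 2.096 and 2.03 CPM per kb of segment in siControl. Segments include introns, so a long one such as PCDHGA12 is low on this scale. PCDHGB5 fell from 20.0, 19.0 and 18.4 CPM to 15.5, 16.5 and 15.3 CPM (log2 fold change -0.28, SE 0.094, FDR 0.0299). PCDHGA9 was at 13.9, 12.8 and 11.7 CPM and at 11.4, 10.8 and 9.96 CPM (-0.26, FDR 0.101), and PCDHGA10 at 9.44, 9.34 and 9.59 CPM and at 8.97, 8.16 and 7.42 CPM (-0.21, FDR 0.219). Neither passed the test, although the groups did not overlap in either. PCDHGB6 was at 11.0, 11.4 and 11.2 CPM in siControl and 10.9, 12.0 and 8.94 CPM in siMETTL3, with overlap (-0.08, FDR 0.678; 0.03 without siMETTL3 replicate 3). The other gamma calls depended on single libraries. PCDHGB3, PCDHGA6, PCDHGB5, PCDHGB7 and PCDHGC5 were each lost without siMETTL3 replicate 1 and without siMETTL3 replicate 3. Without siControl replicate 2 the first 4 of these were lost, without siControl replicate 1 PCDHGA6, PCDHGB5 and PCDHGC5, without siControl replicate 3 PCDHGB7, and with DESeq2 PCDHGB5.

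**Figure D4:**
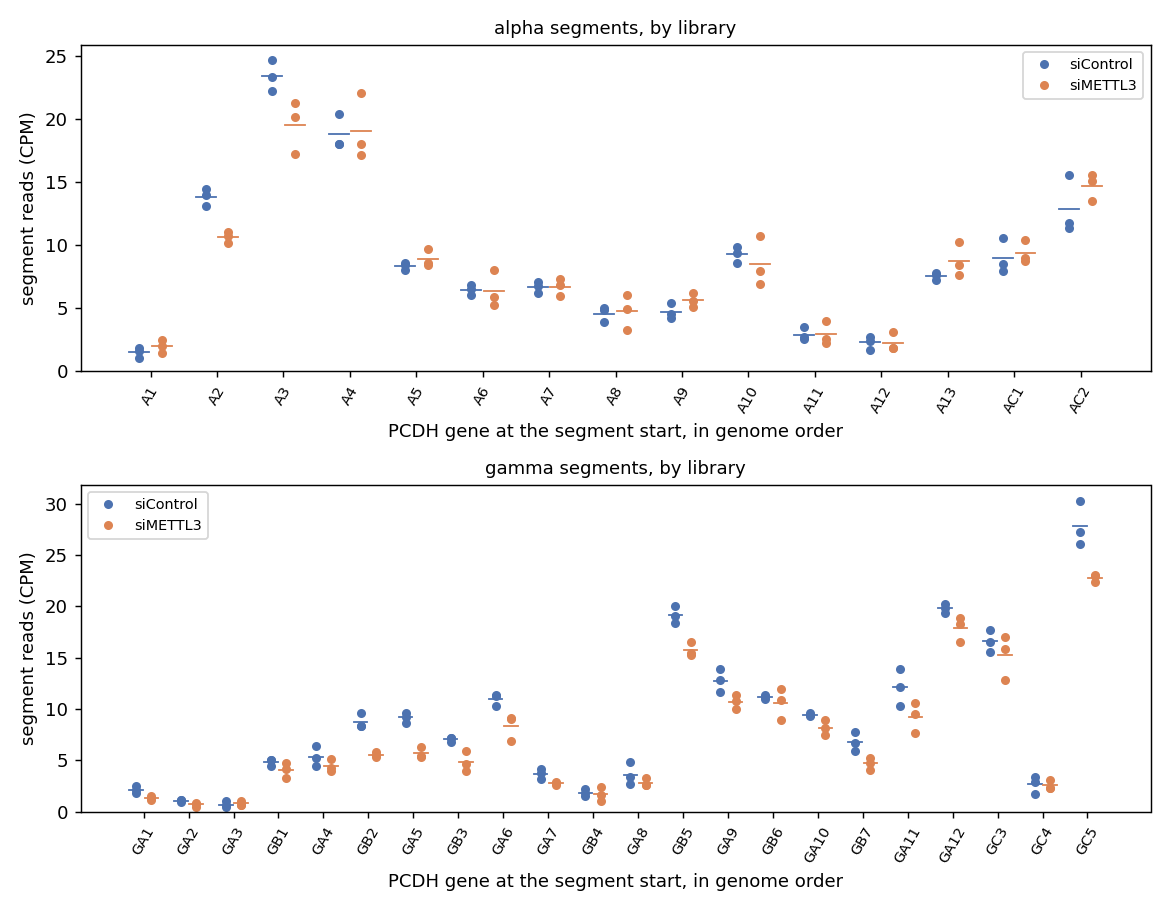
CPM of each alpha and gamma segment, in order along each cluster, 1 point per library. In the alpha cluster PCDHA2 and PCDHA3 are the segments with all siMETTL3 points below the siControl points. In the gamma cluster this holds for 13 of 22 segments, against 25.1% of all features.

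Of the 15 alpha segments 1 was lower, PCDHA2, a share below that over all features (19.1%). The PCDHA3 and PCDHA2 segments were the most abundant per kilobase in siControl, at 3.97 and 2.24 CPM per kb, followed by PCDHA5 at 1.31. The PCDHA2 segment was at 13.1, 14.5 and 14.0 CPM in siControl and 10.7, 11.0 and 10.2 CPM in siMETTL3, or 76.8% of control (log2 fold change -0.38, SE 0.109, FDR 0.0133). The groups did not overlap, but the call was lost without siControl replicate 2 and without siMETTL3 replicate 3. The PCDHA3 segment was at 23.3, 24.7 and 22.2 CPM and at 20.2, 21.3 and 17.2 CPM (log2 fold change -0.26, FDR 0.055). It missed the threshold here and passed with limma-voom, with the replicate number as a block and without siControl replicate 3.

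The other 13 alpha segments all had overlapping groups, and none passed the test. PCDHA5 was at 8.37, 8.54 and 7.99 CPM in siControl and 9.65, 8.57 and 8.45 CPM in siMETTL3 (log2 fold change 0.10, SE 0.126, FDR 0.588). PCDHA4, which held 14.5% of the alpha reads, was at 18.8 ± 1.39 and 19.1 ± 2.60 CPM (SD, n = 3; log2 fold change 0.02, FDR 0.915). PCDHA2 and PCDHA3 together made up 28.5%, 28.0% and 28.1% of the alpha reads in siControl and 22.6%, 25.8% and 21.3% in siMETTL3. That pair was chosen after its values were seen, and its share is given with no test.

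Of the 5 C-type segments 1 passed the test, PCDHGC5, which was lower, as were 19.1% of all features. The PCDHAC1 segment was at 7.91, 8.49 and 10.6 CPM in siControl and 8.72, 8.94 and 10.4 CPM in siMETTL3 (log2 fold change 0.06, SE 0.142, FDR 0.759). The PCDHAC2 segment, which also holds the alpha constant exons, was at 11.8, 15.5 and 11.3 CPM and at 13.5, 15.6 and 15.1 CPM (0.19, SE 0.130, FDR 0.282). The groups overlapped in both. In the gamma cluster the PCDHGC3 segment was at 16.6, 17.7 and 15.5 CPM and at 15.9, 17.002 and 12.8 CPM (-0.12, FDR 0.443). The PCDHGC4 segment was at 3.40, 2.91 and 1.73 CPM and at 3.12, 2.30 and 2.34 CPM (-0.08, FDR 0.849). Neither passed the test, and the sign of PCDHAC1 and of PCDHGC4 changed with single libraries left out. The PCDHGC5 segment, which also holds the gamma constant exons and the spliced reads of all gamma isoforms, went from 30.3, 27.2 and 26.1 CPM to 23.0, 23.0 and 22.4 CPM. It fell without overlap (log2 fold change -0.29, SE 0.087, FDR 0.0162), close to the value of the whole gamma cluster.

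In the regulator list, 5 of 19 genes were higher and 1 was lower, at a median of 0.08 on the log2 scale, against 37.8% of all genes called in either direction. CTCF, the factor that binds clustered protocadherin promoters and enhancers, was at 89.3, 87.6 and 75.6 CPM in siControl and 103, 98.6 and 106 CPM in siMETTL3 (log2 fold change 0.28, SE 0.069, FDR 0.00607). DNMT3B, a DNA methyltransferase that acts on these promoters, went from 35.6, 29.3 and 26.2 CPM to 38.6, 44.2 and 41.2 CPM (0.44, SE 0.103, FDR 0.00438). Both rose without overlap. The partner methyltransferases EHMT1 and EHMT2, which modify lysine 9 of histone H3, moved in opposite directions, EHMT1 rising (0.37, FDR 0.00757) and EHMT2 falling from 124 ± 5.15 to 93.1 ± 5.16 CPM (SD, n = 3; -0.41, FDR 0.000182). The cohesin regulator PDS5B rose (0.24, FDR 0.00773), a call lost without siMETTL3 replicate 1. The fifth gene that rose, the cohesin subunit SMC1A (0.19, FDR 0.0326), lies outside the naming rule and was lost without siControl replicate 1 or 2 and without siMETTL3 replicate 1 or 2. The cohesin subunit RAD21, whose span overlaps UTP23, was at 0.06 (FDR 0.563), and SMCHD1, a chromatin protein that represses clustered protocadherin genes, at 0.13 (FDR 0.0901).

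**Figure D5:**
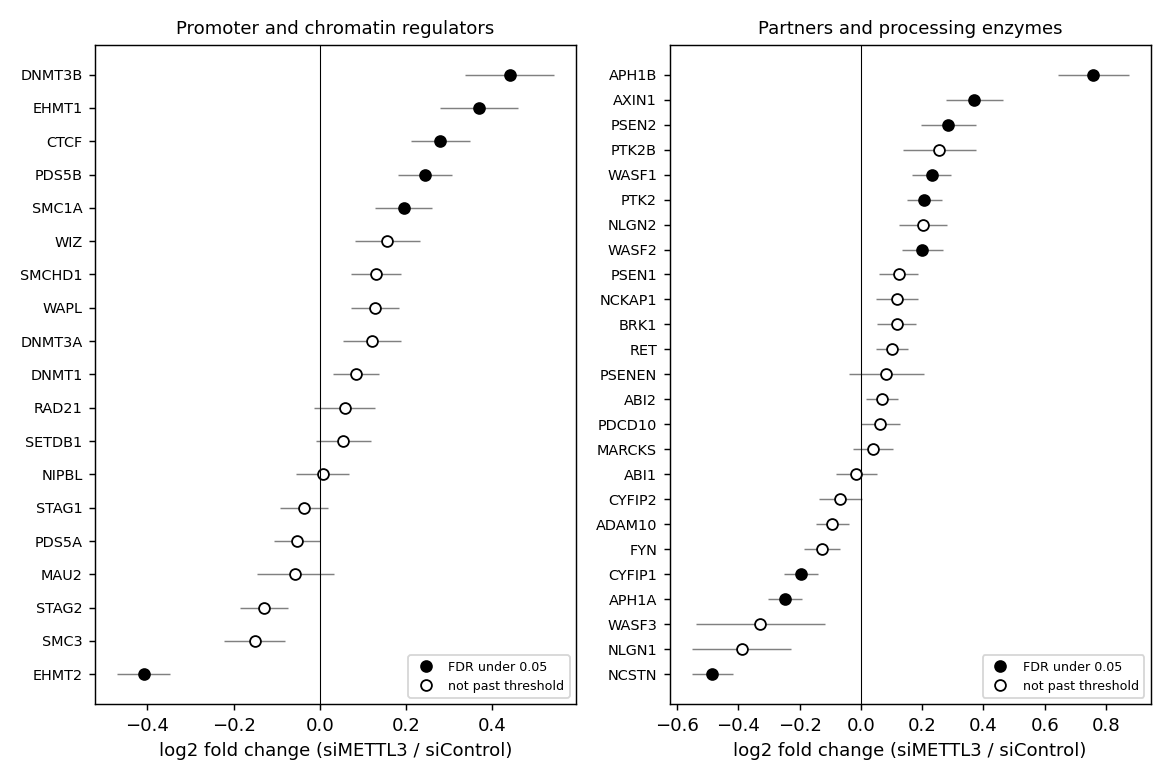
Log2 fold change with its SE for the 19 regulators and the 25 partners and processing enzymes; filled points passed an FDR of 0.05. Among the filled points, 5 regulators (CTCF, DNMT3B, EHMT1, PDS5B and SMC1A) and 6 partners lie above 0, and EHMT2, NCSTN, APH1A and CYFIP1 lie below it.

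Of 25 genes for the processing and signalling of these cadherins, 6 were higher and 3 lower, at a median of 0.08 on the log2 scale. Called genes were thus about as frequent as among all genes, of which 37.8% were called in either direction. Gamma-secretase, the membrane protease that cuts the tails of clustered protocadherins, had subunits in both directions. NCSTN was at 87.1, 78.4 and 78.1 CPM in siControl and 60.2, 59.3 and 54.6 CPM in siMETTL3 (log2 fold change -0.49, SE 0.068, FDR 9.9e-05). APH1B was at 8.90, 9.51 and 7.96 CPM and at 15.2, 14.2 and 15.5 CPM (0.76, SE 0.115, FDR 0.000187), while APH1A, a paralog whose span overlaps C1orf54, fell from 140 ± 2.06 to 118 ± 4.78 CPM (SD, n = 3; -0.25, FDR 0.00321). In all 3 the groups were apart. The remaining decrease was CYFIP1, a subunit of the WAVE actin-regulating complex (-0.20, FDR 0.0138), which lies outside the naming rule and was lost without siMETTL3 replicate 3. The other increases, also outside the rule, were AXIN1 (0.37, FDR 0.00676), the gamma-secretase subunit PSEN2 (0.29, FDR 0.0236), WASF1 (0.23, FDR 0.011), PTK2 (0.21, FDR 0.0114) and WASF2 (0.20, FDR 0.0278). Without siMETTL3 replicate 1 the last 4 were lost, without siMETTL3 replicate 2 PSEN2 and WASF2, without siMETTL3 replicate 3 WASF1, PTK2 and WASF2, and without siControl replicate 2 PTK2 and WASF2.

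Of 31 other genes within 500 kb of the clusters, 29 were tested, 4 were higher and 7 lower, at a median of 0.06 on the log2 scale, which is about the share called over all genes (37.8% in either direction). AC244517.10, which shares reads with PCDHB14 and PCDHB15, fell from 15.5, 17.6 and 14.7 CPM to 8.46, 8.31 and 9.93 CPM (log2 fold change -0.84, SE 0.121, FDR 0.000122). TAF7, a subunit of the general transcription factor TFIID that lies between the beta and gamma clusters (chr5:141260225-141320784), went from 102, 113 and 113 CPM to 77.3, 75.4 and 84.1 CPM (-0.47, SE 0.066, FDR 0.000105). ZMAT2, the nearest called gene before the alpha cluster, rose from 35.4, 40.1 and 44.002 CPM to 47.0, 52.4 and 51.7 CPM (0.34, SE 0.085, FDR 0.00601). Its span overlaps HARS2, which fell (-0.30, SE 0.078). Decreases outside the naming rule also included IK (-0.29, FDR 0.00532) and NDUFA2 (-0.21, FDR 0.0372), whose spans overlap. The NDUFA2 call was lost without any 1 of the siMETTL3 replicates, among other settings. The other 3 increases, outside the naming rule, were SLC35A4, SLC4A9 (lost without siControl replicate 2 or 3 and without any of the siMETTL3 replicates) and PCDH1. PCDH1, a protocadherin that belongs to no cluster, rose from 58.3 ± 4.40 to 82.9 ± 3.44 CPM (SD, n = 3; log2 fold change 0.51, SE 0.069, FDR 7.79e-05).

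As METTL3 methylates adenosine within a short consensus of which GGACT is a common form, GGACT was counted on the sense strand of each first exon (canonical transcripts of GENCODE release 44). The median number per kb was 0.396 in the alternate alpha exons, 0.841 in beta, 1.15 in gamma A, 1.16 in gamma B, 1.69 in the 2 alpha C-type and 1.91 in the 3 gamma C-type exons. Over 19701 whole canonical transcripts it was 0.923, an unlike measure, since alpha and gamma first exons are only part of theirs. Per kb of whole transcript, the alternate alpha members ran from 0.186 to 0.925. Gamma A ran from 0.419 to 1.47, gamma B from 0.632 to 1.47, alpha C-type from 0.873 to 1.19 and gamma C-type from 1.26 to 1.68. Within clusters the counts were few. Among called beta genes, the PCDHB14 exon held 2, the PCDHB2 exon 2 and the PCDHB15 exon 9. Among beta genes not past the threshold, the PCDHB13 exon held 6 and the PCDHB3 and PCDHB6 exons 3 each. All 15 tested beta genes had a log2 fold change below 0, and a relation to these counts was not tested. First exons were 2470 to 3027 bases long in alpha, 2563 to 2677 in gamma and 2750 to 7973 in beta. Methylation itself was not measured here, and a match to these letters is not a methylated site.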

How the data were processed

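Poly(A) RNA from Kelly cells was sequenced in 3 siControl and 3 siMETTL3 libraries; groups and replicate numbers came from the sample titles. The values are raw read counts per gene that the authors deposited. Per the file headers they were made with featureCounts 1.5.3 on a GENCODE release 33 protein-coding annotation (GRCh38), over whole gene spans, with multi-overlapping reads counted for each gene and no strand option. The submitters' processing notes also name FastQC 0.11.5, Trimmomatic 0.36 and HISAT2 2.1.0.

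Counts, and separately the table with alpha and gamma rows replaced by segments, were tested with edgeR 4.0.16 (R 4.3.3; filterByExpr, TMM, robust quasi-likelihood F-test, all 6 libraries, no covariate). FDR values are Benjamini-Hochberg over all 15311 features, threshold 0.05, and every FDR in the text is edgeR's unless another tool is named. CPM were computed here from TMM-scaled totals. SE is the absolute log2 fold change over the square root of F.

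Members and lists (regulators, partners, markers) were chosen with earlier results of these data known. Named genes follow a rule: METTL3, C-type isoforms, the outermost alpha and gamma genes, in each subfamily the 3 highest per kb and up to 3 with the smallest FDR, CTCF, RAD21, SMCHD1, DNMT3B, up to 3 more per list, and called neighbours that overlap or flank a cluster; others were named for completeness of a count or as contrast. On simulated data (10 draws, 200 features changed of 15311), the siMETTL3 against siControl gene fit called 89.8% of 2-fold and 73.2% of 1.41-fold changes with 4.47% false calls, and the segment fit 89.4%, 76.4% and 4.12%. The simulated spread depended on abundance alone, with no outlying library. Far fewer features were changed than the 37.8% of genes called in the data, so these rates need not hold for the data. Alternatives were DESeq2 1.42.0, limma-voom (limma 3.58.1), edgeR without the robust option, scaling by RLE, by upper quartile or by total count, filters of none or of 10 counts everywhere, a replicate block, and each library left out.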

Additional observations from a re-analysis of the deposited data

How the results depend on the processing

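The number of genes lower in siMETTL3 (31) ran from 14 (without siMETTL3 replicate 3) to 31 with single libraries left out, and from 28 to 31 in the other settings. The number of segments lower (17) ran from 8 (without siMETTL3 replicate 3) to 19, and from 15 to 19 otherwise. Lower calls over all features also fell without siMETTL3 replicate 3, but by a smaller share. They went from 2937 to 2311 in the gene fit and from 2927 to 2309 in the segment fit. Without siControl replicate 1, 25 genes and 12 segments were lower, while lower calls over all features rose to 3216 and 3246. No member was higher in any setting. In the fit with a replicate block, 31 genes and 19 segments were lower. Same-numbered libraries of the 2 groups deviated together only weakly (correlations 0.0363, 0.0369 and 0.0650). These still lay above every value for different numbers (-0.0700 to 0.0357). Over all genes, 3047 were higher and 3119 lower with the block, against 2849 and 2937 without it. Whether the numbers pair the libraries cannot be told from these values, and the main fit did not pair them. Signs changed for values near 0: the PCDHA1 row reached 7.14e-05 with total-count scaling, and with libraries left out it ran from -0.058 to 0.020, the PCDHAC1 segment from -0.024 to 0.19, the PCDHGC4 segment from -0.29 to 0.12, the PCDHGB6 segment from -0.18 to 0.031 and RAD21 from -0.027 to 0.11, on the log2 scale; the cause was not tested. METTL3 stayed between -0.74 and -0.69. For the 41 features followed, 362 of 369 values outside the left-out libraries kept direction and call, as did 202 of 246 with a library left out. The 6 beta genes that did not pass had SEs of 0.189 to 0.434 on the log2 scale, at mean counts of 14.7 to 64.7 per library.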
